A study of Mus musculus with 2 samples.

Results

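Chromatin accessibility of 9 genes known from megakaryocytes and platelets was described in primary mouse erythroblasts, the nucleated precursors of red cells. The genes were Itga2b, Gp1ba, Gp9, Vwf, P2ry1, Nbeal2, Pf4, Ppbp and Fli1, 9 of 21938 protein-coding genes of the annotation (GENCODE M21, mm10). They were chosen by their intervals in these same peak lists, so their counts are a description and none of them was tested. The series holds 2 ATAC-seq libraries, biological replicates 1 and 2 of 1 group: 50000 erythroblasts a library, from adult C57BL/6J males (5 to 6 weeks), with no treatment named. The replicates have separate biosamples but 1 donor identifier, and the labels do not say by which gate the cells were obtained. ATAC-seq inserts adapters into open DNA with a transposase, and a peak caller then lists the intervals where insertions pile up. For each gene, the intervals in the gene body and 50 kb on either side were taken from the authors' lists. An interval within 1 kb of any annotated start site of the gene was called promoter, another interval in the gene body intragenic, and the rest outside. A gene was open when the thresholded list of each replicate held a promoter interval.

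Megakaryocytes and red cells descend from a shared progenitor, and the lineages share regulators such as GATA1 and TAL1. Megakaryocytes shed platelets, which stick to damaged vessels through surface receptors, release stored granules and aggregate. The 9 genes cover these steps. Itga2b, Gp1ba and Gp9 encode subunits of adhesion receptors, Vwf the adhesive protein that Gp1ba binds, and P2ry1 a receptor for ADP. Nbeal2 is needed to form alpha granules, Pf4 and Ppbp encode chemokines stored in them, and Fli1 is an ETS transcription factor of the megakaryocyte lineage.

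In the thresholded lists 5 of the 9 genes were open in both replicates: Itga2b, Gp1ba, Vwf, P2ry1 and Nbeal2. Of all protein-coding genes 41.4% were open by the same rule. At the outermost 5′ end of the gene 4 of 9 were open, against 38.4% of all genes, because Vwf was open only at an internal start. With the longer, less strict lists 6 of 9 were open, against 46.6%, the added gene being Gp9. When an interval also had to reach the median enrichment of its list, 1 of the 9 was open, P2ry1, against 30.0% of all genes. Pf4, Ppbp and Fli1 had no thresholded interval anywhere in their windows in either replicate, as had 31.6% of all genes. In the less strict lists Pf4 and Ppbp still had none in both replicates, as had 22.7% of all genes. The members were chosen with these values known, and nothing is read from the comparison with all genes.

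The sequences at the promoter sites carry the places described below. For Vwf the interval came within 1 kb of the start only with its edge, so the stretch shown lies before that start and not at it. They are from the mm10 reference (GRCm38.p6), written along the gene's own strand from 5′ to 3′, as 75 bases on either side of the strongest summit of replicate 1 without annotated UTR bases. Itga2b and Nbeal2 lie on the minus strand, the others on the plus strand. Capitals mark any of 5 motifs on either strand. The GATA motif was AGATAA or AGATAG, with TGATAA or TGATAG also accepted. The ETS motif was AGGAAG or else CGGAAG, the RUNX motif TGTGGT, the KLF motif CCNCACCC and the core bound by NFE2 and AP-1 TGANTCA.
Itga2b 5′ end, chr11:102470095-102470245: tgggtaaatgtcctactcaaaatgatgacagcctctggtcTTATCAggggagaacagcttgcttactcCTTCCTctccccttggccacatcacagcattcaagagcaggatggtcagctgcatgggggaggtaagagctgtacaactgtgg
Itga2b internal start, chr11:102467212-102467362: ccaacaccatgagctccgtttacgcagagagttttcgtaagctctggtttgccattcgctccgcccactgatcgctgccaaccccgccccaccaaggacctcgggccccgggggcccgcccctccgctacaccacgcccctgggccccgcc
Gp1ba start, chr11:70639007-70639101: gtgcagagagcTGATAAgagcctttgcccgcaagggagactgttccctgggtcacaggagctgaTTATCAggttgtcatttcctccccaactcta
P2ry1 start, chr3:61002658-61002784: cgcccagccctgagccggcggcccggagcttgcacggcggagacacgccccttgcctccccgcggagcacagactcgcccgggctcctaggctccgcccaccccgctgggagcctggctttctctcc
Nbeal2 start, chr9:110654162-110654305: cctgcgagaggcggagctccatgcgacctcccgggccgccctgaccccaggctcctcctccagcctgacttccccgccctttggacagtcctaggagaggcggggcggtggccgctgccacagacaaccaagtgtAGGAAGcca
Vwf, before internal start, chr6:125565054-125565204: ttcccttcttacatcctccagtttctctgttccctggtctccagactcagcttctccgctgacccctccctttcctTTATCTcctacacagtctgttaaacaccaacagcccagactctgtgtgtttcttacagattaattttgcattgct

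For comparison, the bases just before the annotated 5′ ends of Gp9, Pf4 and Ppbp, which were closed in the thresholded lists, are shown in the same way, all on the plus strand.
Gp9 start, chr6:87777921-87778067: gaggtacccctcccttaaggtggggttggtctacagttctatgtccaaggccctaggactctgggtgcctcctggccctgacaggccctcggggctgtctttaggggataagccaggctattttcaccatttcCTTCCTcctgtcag
Pf4 start, chr5:90772284-90772434: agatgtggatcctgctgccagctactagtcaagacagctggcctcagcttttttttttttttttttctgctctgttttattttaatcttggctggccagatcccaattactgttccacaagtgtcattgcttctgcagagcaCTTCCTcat
Ppbp start, chr5:90768367-90768517: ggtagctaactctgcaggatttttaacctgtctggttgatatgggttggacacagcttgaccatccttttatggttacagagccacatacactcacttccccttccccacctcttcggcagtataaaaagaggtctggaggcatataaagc

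**Figure D1:**
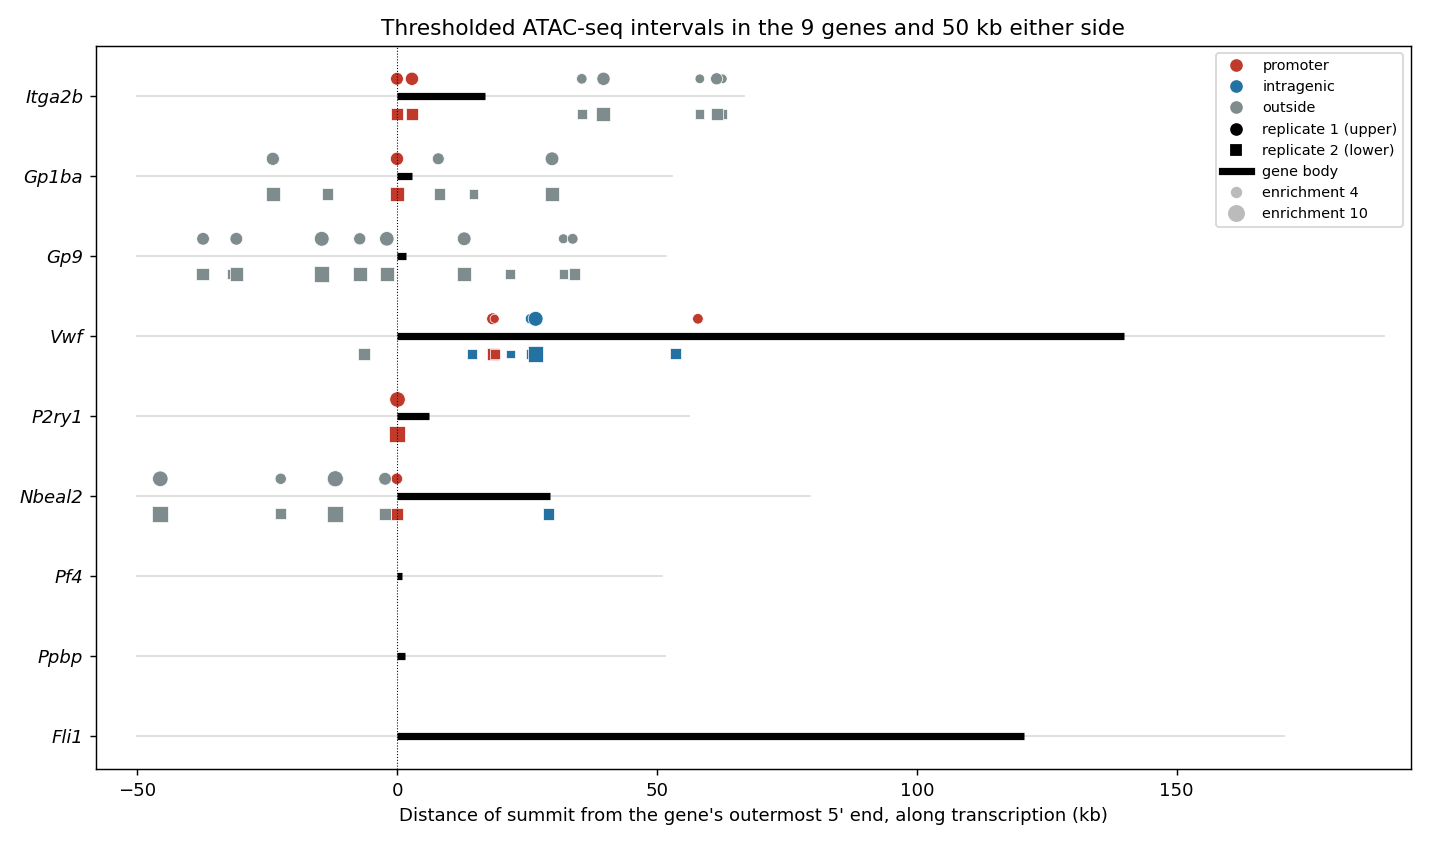
Position of every thresholded interval in the 9 windows, as the distance of its strongest summit from the gene's outermost 5′ end along transcription (kb), with replicate 1 above and replicate 2 below each gene body. Marker size follows enrichment and colour the class. Gp9 is ringed by outside intervals with none at its start, and Pf4, Ppbp and Fli1 have no marker.

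Itga2b (ENSMUSG00000034664.13, chr11:102453297-102470122, minus strand) encodes integrin alpha IIb, the alpha chain of the platelet fibrinogen receptor. It had 2 promoter sites in each replicate. The first covered the 5′ end, with its summit 48 bp before the start of the noncoding transcript Itga2b-205 in replicate 1 and 49 bp before it in replicate 2. The coding transcript Itga2b-201 starts 239 bp further in and lay within 1 kb of the same interval. Enrichment, the fold of the summit over background by the authors' peak caller, was 7.15 in replicate 1 and 6.86 in replicate 2 (mean 7.01 ± 0.203 SD, n = 2). The second site lay 2.83 kb inside the gene, just before the start of the noncoding transcript Itga2b-209, with enrichments of 7.71 and 7.28 (7.49 ± 0.304, SD, n = 2). Both sites were thus about equally strong. In the bases shown, the 5′ site holds a GATA and an ETS match and the internal site holds none of the 5 motifs. The less strict lists added a weaker site at the noncoding start Itga2b-207, with 4.98 in replicate 1 and 4.96 in replicate 2. Replicate 1 alone listed a further summit of 2.56 at 44 bp after the coding start. Both less strict lists also held an outside site 17.0 kb upstream, in an intron of Gpatch8, with 7.5 and 6.80. The series-level thresholded list held that site at 8.01. The other 5 sites found in both thresholded lists lay outside, downstream of the gene, with means from 3.86 to 8.16. The strongest of them sat at Grn, the progranulin gene, 39.7 kb past the 5′ end, at 8.16 ± 0.630 (SD, n = 2).

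Gp1ba (ENSMUSG00000050675.7, chr11:70639122-70642036, plus strand) encodes the glycoprotein Ib alpha chain that binds von Willebrand factor. It had 1 promoter interval in each replicate, at its coding start Gp1ba-201. The summit lay 40 bp before the start in replicate 1 and 37 bp before it in replicate 2. Enrichment was 7.69 and 7.74 (7.72 ± 0.0390, SD, n = 2), which was the closest agreement among the members' promoter sites. The bases shown before the start hold 2 GATA matches, TGATAA and TTATCA, the second being the same motif read on the other strand. With the 56 bases that were left out of the sequence shown, the window around this summit holds 3 GATA matches and 1 ETS match. The 3 outside sites shared by the replicates sat near Chrne, Slc25a11 with Rnf167, and Spag7. The strongest, at Spag7, had 8.52 ± 0.350 (SD, n = 2). All 3 outside intervals of replicate 1 and all 5 of replicate 2 lay within 1 kb of another gene's start.

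Gp9 (ENSMUSG00000030054.4, chr6:87778072-87779768, plus strand) encodes glycoprotein IX, the partner of glycoprotein Ib. It showed the reverse layout, a start with no thresholded interval within 1 kb among many intervals around it. Its window held 8 intervals in replicate 1 and 10 in replicate 2, the most of the 9 genes. Over all protein-coding genes the median was 2 and the 90th percentile 7 in each replicate. Of the 8 sites found in both replicates, 5 lay upstream and 4 were away from any other gene's start. The strongest lay in intergenic sequence 14.5 kb upstream, with enrichments of 9.61 and 10.2 (9.89 ± 0.389, SD, n = 2). The nearest lay 2.00 kb upstream, near the start of Gm43904, with 9.19 and 9.34 (9.27 ± 0.101, SD, n = 2). Its edge was 1724 bp from the Gp9 start in replicate 1 and 1777 bp in replicate 2, which makes it the interval just outside the 1 kb rule. The 3 downstream sites lay at Rab43 and ranged from 4.12 to 8.17 in mean. In the less strict lists Gp9 counted as open through weak intervals. Replicate 2 listed a summit of 2.97 at 1194 bp before the start, whose edge came within 968 bp. Replicate 1 listed the same place, with 2.95 at 1193 bp, but its edge at 1010 bp missed the 1 kb rule. Replicate 1 counted through another summit, of 2.25 at 783 bp after the start. The nearest and the strongest of the upstream sites are shown because they flank a closed start. The first has a RUNX match (ACCACA, the motif on the other strand) and a GATA match, and the second has 2 GATA matches, whereas the bases before the start hold an ETS match only.
Gp9, 2.00 kb upstream, chr6:87775993-87776130: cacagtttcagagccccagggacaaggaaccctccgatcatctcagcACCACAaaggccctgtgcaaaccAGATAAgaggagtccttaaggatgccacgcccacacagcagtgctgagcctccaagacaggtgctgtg
Gp9, 14.5 kb upstream, chr6:87763469-87763619: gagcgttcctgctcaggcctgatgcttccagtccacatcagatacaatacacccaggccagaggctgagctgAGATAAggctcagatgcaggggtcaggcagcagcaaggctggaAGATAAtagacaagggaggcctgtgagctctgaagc

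Vwf (ENSMUSG00000001930.17, chr6:125546774-125686679, plus strand) encodes von Willebrand factor, which endothelial cells and megakaryocytes make. Neither the 5′ end (Vwf-201) nor the other coding starts (Vwf-202 and Vwf-203) had an interval within 1 kb in any list of the replicates. The gene counted as open through the noncoding start Vwf-204, 19.5 kb inside it. There 2 intervals were listed in both replicates. The stronger had enrichments of 6.12 and 6.51 (6.31 ± 0.273, SD, n = 2), with its summit 1122 bp and 1110 bp before that start. The weaker had 3.65 and 4.33 (3.99 ± 0.479, SD, n = 2). Their edges lay 924 and 919 bp, and 582 and 585 bp, from the start, so the stronger interval was just inside the 1 kb rule. A further promoter interval, near Vwf-206, was in the thresholded list of replicate 1 alone, with 4.91 and its edge at 980 bp. The less strict list of replicate 2 held it at 4.83, and that of replicate 1 alone held another, with 3.76, whose edge lay 11 bp from Vwf-206. The strongest site of the gene was intragenic and lay in an intron 26.6 kb past the 5′ end, with 9.64 and 10.5 (10.1 ± 0.621, SD, n = 2). The other intragenic site in both replicates had 4.86 and 4.18 (4.52 ± 0.486, SD, n = 2). Of the lists used, only the series-level replicated list held an interval near a coding start, with 2.43 close to Vwf-202 and Vwf-203.

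P2ry1 (ENSMUSG00000027765.6, chr3:61002795-61008982, plus strand) encodes the ADP receptor that starts platelet shape change. Its promoter interval was the only one in the window in each of the lists used. The summit lay 62 bp before the start of P2ry1-201 in replicate 1 and 65 bp before it in replicate 2. Enrichment was 10.6 and 10.3 (10.4 ± 0.189, SD, n = 2), the highest of the members' promoter sites. The interval was 1369 bp wide in replicate 1 and 1244 bp in replicate 2, with 4 summits in each, against median promoter widths of 795.5 and 769 bp. It also lay within 1 kb of a start of Gm37035, another annotated gene. The strongest summit of replicate 1 lay in an exon of Gm37035, so the interval cannot be assigned to P2ry1 alone. The bases before the P2ry1 start hold none of the 5 motifs.

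Nbeal2 (ENSMUSG00000056724.15, chr9:110624789-110654161, minus strand) encodes a BEACH-domain protein of alpha granule formation and was open at its 5′ end. The summit lay 69 bp before the coding start Nbeal2-206 in replicate 1 and 68 bp before it in replicate 2. Enrichment was 5.73 and 6.43 (6.08 ± 0.496, SD, n = 2), the lowest of the sites at a member's 5′ end. Stronger sites lay upstream, in and around the neighbouring gene Ccdc12. The strongest was 11.9 kb upstream, with 11.3 and 11.1 (11.2 ± 0.178, SD, n = 2), and lay near an annotated Ccdc12 start. The site 45.6 kb upstream, in an intron of Ccdc12, had 10.6 and 11.2 (10.9 ± 0.395, SD, n = 2). The less strict lists added a site at Nbeal2-209, an internal start of a retained-intron transcript, with 3.57 and 3.67. The sequences of the strongest Nbeal2 site and of the strongest Vwf site are shown because each had the highest mean of its window, although in replicate 2 the Nbeal2 site 45.6 kb upstream was slightly higher. The first holds 1 GATA, 2 ETS and 2 RUNX matches, and the second the NFE2 and AP-1 core.
Nbeal2, 11.9 kb upstream, chr9:110666004-110666154: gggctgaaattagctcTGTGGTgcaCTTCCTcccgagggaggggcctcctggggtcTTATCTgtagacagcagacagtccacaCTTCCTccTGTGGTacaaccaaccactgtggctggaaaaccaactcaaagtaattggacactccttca
Vwf, intron, chr6:125573332-125573482: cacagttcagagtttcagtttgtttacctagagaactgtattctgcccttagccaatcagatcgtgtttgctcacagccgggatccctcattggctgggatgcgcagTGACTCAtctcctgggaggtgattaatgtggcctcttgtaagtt

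Pf4 (ENSMUSG00000029373.7, chr5:90772435-90773383) and Ppbp (ENSMUSG00000029372.7, chr5:90768518-90770063) encode platelet factor 4 and pro-platelet basic protein, chemokines of the alpha granule. Their starts are 3.92 kb apart on the plus strand and their windows share 97629 bp, so they count as nearly 1 region. No interval was listed there in any of the lists used, the series-level ones included. Fli1 (ENSMUSG00000016087.13, chr9:32422204-32542861, minus strand) had none in either thresholded list or in the less strict list of replicate 1. The less strict list of replicate 2 held 2 intergenic intervals far upstream of Fli1, with 4.47 at 47.3 kb and 4.84 at 49.1 kb. The series-level replicated list held both, with 4.34 and 5.75. The lists hold no read counts, so an absent interval means a signal that did not pass the cut of that list, at an unknown depth. The cut was not by enrichment alone. In replicate 2 an Itga2b site of 6.80 was left out of the thresholded list while one of 3.62 was kept. In bulk chromatin, a site open in few cells and one weakly open in all cells cannot be told apart.

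**Figure D2:**
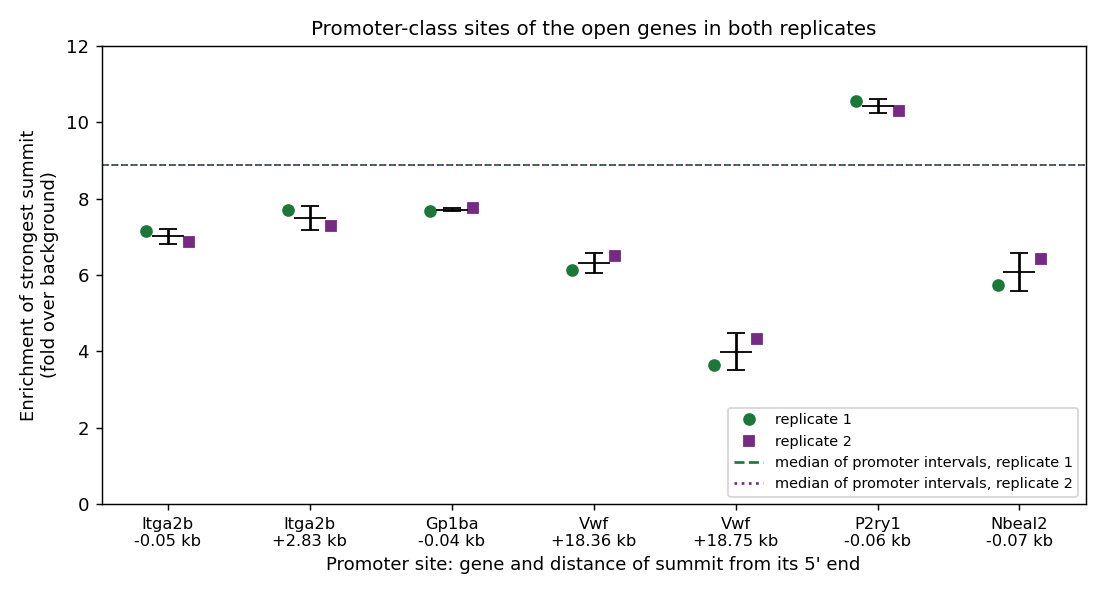
Enrichment (fold over background) of the 7 promoter sites found in both replicates, with points for each replicate, the mean and the SD (n = 2), and dashed lines at the median of all promoter intervals of each list. P2ry1 sits above the medians of 8.87 and 8.88, and the other 6 sites sit below them.

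Against the 10206 promoter intervals of replicate 1 (summit within 1 kb of any annotated start, median enrichment 8.87) and the 10571 of replicate 2 (median 8.88), the members' promoter sites were mostly in the lower part. Low values were not particular to these genes. Erythroblast markers, listed below, had mean promoter enrichments from 3.33 (Hba-a1) to 9.55 (Epb42), and only Epb42 stood above both medians. P2ry1 stood at the 68.3 percentile in replicate 1 and the 65.5 percentile in replicate 2. Gp1ba stood at 36.8 and 38.1, the internal Itga2b site at 37.1 and 33.3, and the Itga2b 5′ site at 31.2 and 29.3. Nbeal2 stood at 16.9 and 25, the stronger Vwf site at 20.5 and 25.6, and the weaker Vwf site at 2.54 and 6.45. The Vwf site near Vwf-206, thresholded in replicate 1 alone, stood at 10.2. Its summit and that of the stronger Vwf site lay more than 1 kb from a start. These 2 sites would thus not count among the promoter intervals they are set against. The order of the sites was P2ry1, Gp1ba, internal Itga2b, Itga2b 5′ end, Vwf, Nbeal2 and the weaker Vwf site by the mean. P2ry1 was above and the weaker Vwf site below all others in both replicates. Gp1ba and the internal Itga2b site swapped order between the replicates, and the ranges of Nbeal2 and the stronger Vwf site overlapped. The promoters also differed in CpG content. In 1000 bp around the 5′ end, the CpG observed over expected ratio was 0.746 for P2ry1 and 0.819 for Nbeal2, above the median of 0.552 over 21911 genes. It was 0.232 for Itga2b, 0.0919 for Gp1ba, 0.124 for Gp9, 0.186 for Vwf and 0.126 for Ppbp, all below it. Pf4 had 0.405, and Fli1 had 0.576, just above the median. Of the closed members only Fli1 was above the median. Itga2b, Gp1ba and Vwf were open and below it, though Vwf was open only at an internal start outside these 1000 bp. A link between CpG content and openness was not tested.

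**Figure D3:**
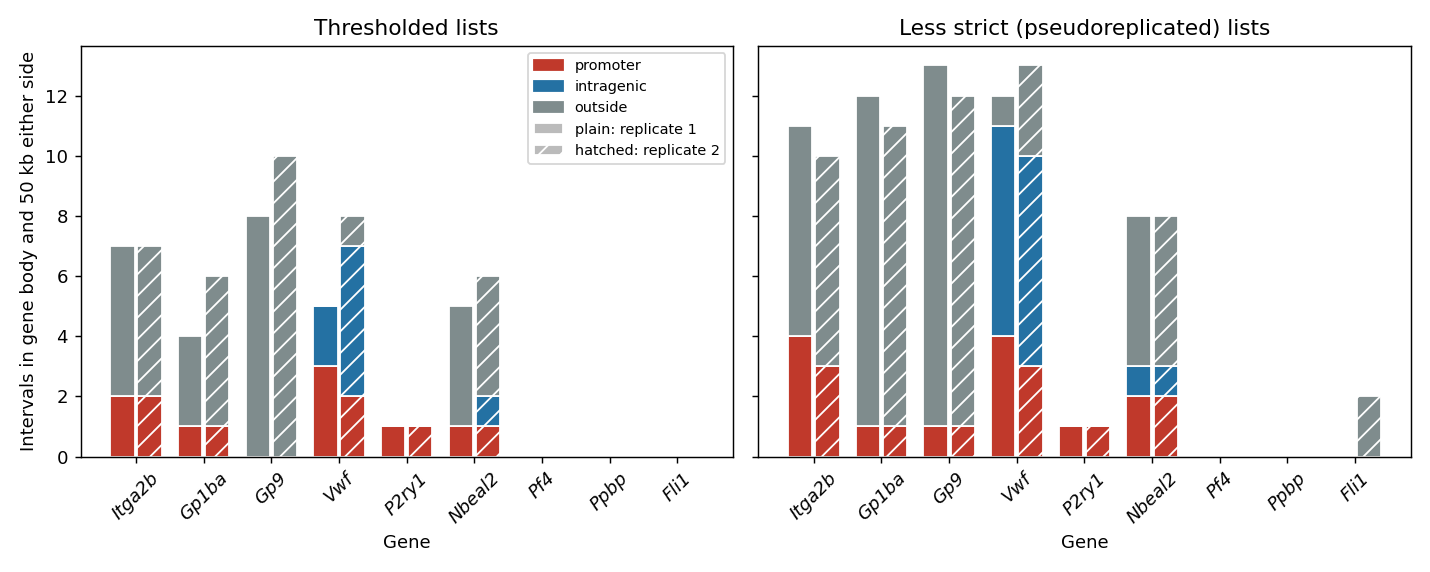
Number of intervals in each gene's window by class, in the thresholded lists (left) and the less strict lists (right), with plain bars for replicate 1 and hatched bars for replicate 2. Gp9 has the most thresholded intervals (8 and 10), all outside, and P2ry1 has 1 promoter interval in every bar.

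The 9 windows held 30 thresholded intervals in replicate 1 and 38 in replicate 2 (34 ± 5.66, SD, n = 2). Promoter intervals numbered 8 and 7, intragenic ones 2 and 6, and outside ones 20 and 25. Of the outside intervals, 13 in replicate 1 and 16 in replicate 2 lay within 1 kb of another gene's start. The less strict lists held 57 in each replicate, and the series-level replicated list 80. Of the thresholded intervals in the windows, 29 of 30 of replicate 1 overlapped one of replicate 2 (96.7%, 95% Wilson interval 83.3 to 99.4). In the other direction 29 of 38 did (76.3%, 60.8 to 87.0). Over the whole lists the shares were 91.1% and 86.3%. Against the less strict list of the other replicate all 30 and all 38 overlapped. These intervals cover counting error only. The 29 shared sites were 7 promoter, 2 intragenic and 20 outside, and their summits differed by a median of 4 bp. The 10 sites thresholded in 1 replicate alone had 4.91 for the 1 of replicate 1 and from 3.44 to 6.22 for the 9 of replicate 2. The means of the shared sites ran from 3.86 to 11.2, so the ranges overlapped. Of the 9 in replicate 2 alone, 4 lay in the Vwf window, the strongest 6.42 kb upstream of its 5′ end with 6.22.

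Motif letters were counted in 75 bp on either side of the strongest summit. Of the members' windows whose summit lay within 1 kb of any gene's start, 7 of 19 in replicate 1 and 8 of 23 in replicate 2 held a GATA match (36.8% and 34.8%). The share over all such windows was 13.1% in each list. Farther from starts it was 5 of 11 and 6 of 15 (45.5% and 40%), against 45.8% and 44.7% over all such windows. ETS matches near starts were in 9 of 19 and 9 of 23, against 37.1% and 37.0% of all. RUNX matches near starts were in 4 of 19 and 4 of 23, against 6.41% of all in replicate 1. Farther from starts ETS matches were in 1 of 11 and 3 of 15, against 21.9% of all in each list, and RUNX matches in 0 of 11 and 0 of 15, against 14.1% of all in replicate 1. KLF matches were in 0 of 19 and 1 of 23 near starts, against 11.1% of all in replicate 1. Farther away they were in 3 of 11 and 4 of 15, against 12.9% of all in replicate 1. The NFE2 and AP-1 core was in 0 of 19 and 1 of 23 near starts, against 3.10% and 3.21% of all. Farther away it was in 2 of 11 and 3 of 15, against 9.23% and 9.35% of all. No member window held a CTG and a GATAA exactly 8 bases apart, which 3.92% of all farther windows of replicate 1 held. Only this spacing was searched. The count therefore does not show whether the E-box and GATA pair of the TAL1 complex, at other spacings, is absent. In windows of the same length before the 5′ ends of all 21938 genes, GATA matches occurred in 14.4% and ETS matches in 29.3%. The windows are few and several share a region, so these are descriptions, and a match is not a bound site.

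Beyond the 9 members, 54 other megakaryocyte and platelet genes were listed by role, and 20 were open in both replicates (37.0%). By the same rule 41.4% of all protein-coding genes were open, so the share of the list was near that of all genes, and the counts by role were not tested. In the thresholded lists no surface receptor listed was open in both replicates: 0 of 9 adhesion, collagen or podoplanin receptors (Gp1bb, Gp5, Itgb3, Gp6, Clec1b, Mpig6b, Treml1, Cd9 and Itga6) and 0 of 5 receptors for nucleotides, thrombin and thromboxane. The adhesion partners of the open members were among them: Itgb3, which pairs with Itga2b, and Gp1bb and Gp5, which join Gp1ba. Mpig6b was listed in replicate 2 alone, at 4.50. F2rl2, a thrombin receptor, was open in both less strict lists, with 3.68 and 3.56. The series-level replicated list added Gp5, Mpig6b, Itga6, F2rl2 and Tbxa2r, and the series-level thresholded list Mpig6b. Of the granule cargo genes 1 of 8 was open, Srgn, the proteoglycan serglycin. Thbs1 was in the thresholded list of replicate 2 alone, at 5.58, and in the less strict list of replicate 1 at 4.81. Genes of granule formation and release were open in 4 of 6. Rab27b was in the thresholded list of replicate 2 alone, at 6.29, and in the less strict list of replicate 1 at 6.96. The series-level thresholded list also held Thbs1 and Rab27b. Lyst, also a BEACH-domain protein, had the highest mean enrichment of the 20 at 16.7 ± 1.3 (SD, n = 2). Vipas39 had 11.5 ± 0.112 and its partner Vps33b 9.98 ± 0.362 (SD, n = 2). The Vipas39 interval also lay at Ahsa1.

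Cytoskeleton genes were open in 4 of 5, among them Myh9, nonmuscle myosin heavy chain, with 8.64 ± 1.03 and Tln1, talin, with 7.19 ± 0.164 (SD, n = 2). The interval at Tln1 lay also at Creb3. Tubb1, the platelet beta tubulin, was the closed one. Signalling genes were open in 3 of 9, with the small GTPase Rap1b at 11.5 ± 0.0290 and the G protein regulator Rgs18 at 8.09 ± 0.900 (SD, n = 2). Transcription regulators were open in 8 of 12: Srf at 11.9 ± 0.135, Ets1 at 9.82 ± 0.678 and Runx1 at 7.55 ± 0.216 (SD, n = 2), with Nfe2, Gata1, Gfi1b, Zfpm1 and Tal1 below 7. Mef2c, Meis1, Etv6 and Erg were closed in the thresholded lists, though the series-level replicated list held promoter intervals of Mef2c and Etv6. Several of the open regulators also act in red cells. Ets1, Gata1, Flna and Srgn were open only at a start other than the outermost 5′ end. With that end as the only start, 16 of the 54 genes were open. Without the regulators, 12 of 42 genes were open (28.6%) at any start. The list was chosen with earlier results of these data known, and its share was not tested.

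**Figure D4:**
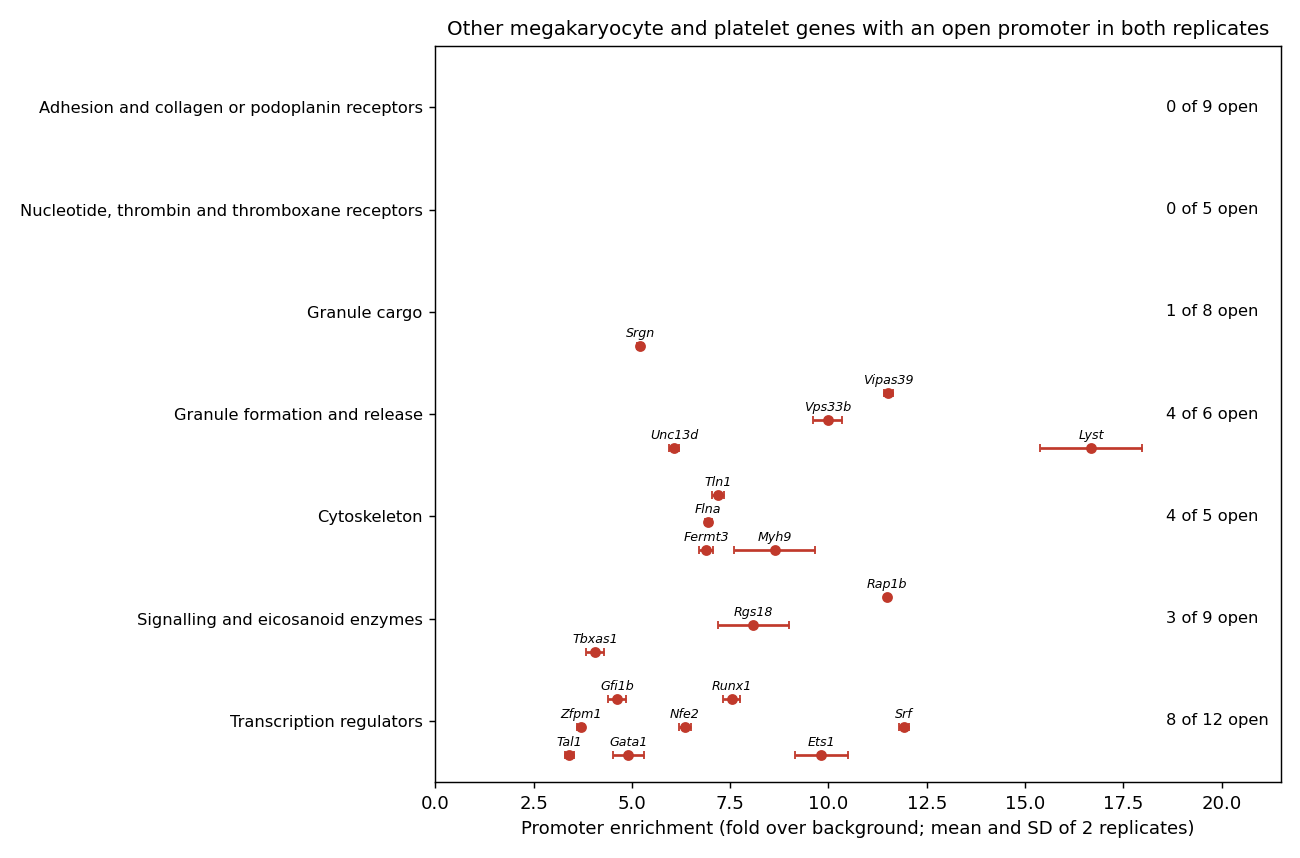
Promoter enrichment (fold over background, mean and SD of 2 replicates) of the 20 other megakaryocyte and platelet genes open in both replicates, by role, with the count open in each role at the right. The receptor rows are empty, and Lyst, at 16.7, lies farthest right.

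The labelled cell type was set beside marker genes. These were chosen with earlier results of these data known, so their counts are not an independent check of the label. Of all protein-coding genes 41.4% were open in both thresholded lists and 46.6% in both less strict lists. All 8 erythroblast markers (Klf1, Epor, Epb42, Slc4a1, Tfrc, Gata1, Hba-a1 and Hbb-bs) were open in both replicates. Of 8 markers each for macrophages, granulocytes and monocytes, B cells, and T and NK cells, and of 7 for stem and progenitor cells, 0 were open in both thresholded lists. In the less strict lists only the B cell genes Ebf1 and Blnk were. Megakaryocytes have no marker list apart from the genes described here, so their share among the cells was not tested.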

How the data were processed

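ATAC-seq peak lists of 2 erythroblast libraries were used, in mm10 per the labels. Which aligner and peak caller made them, and their versions, is not stated in the sources used here. Each replicate has a thresholded and a less strict (pseudoreplicated) list, and series-level lists come from both replicates, per the labels. The deposited enrichment is a ratio, the fold of a summit over background by the authors' caller. The deposited significance is −log10 p by the same caller, used only to break ties between summits. The lists hold no read counts, so depth is unknown. Intervals repeated for several summits were counted once, placed by the strongest summit, and matched between replicates by 1 bp or more of overlap. Start sites were those of GENCODE M21. No test was made, since there is 1 group of 2 libraries. Counts, means with SD and Wilson intervals were computed with Python 3.11.15, pandas 2.3.3 and statsmodels 0.14.6, and the open call was tested on simulated data. The RefSeq promoter table (GRCm38.p6) matched 7 of the 9 members. All 9 members were named with every promoter interval of each replicate's own lists and the strongest other sites. Of the other genes the 10 open ones of highest enrichment were named with values. A few more were chosen after their values were seen (Srgn, Mpig6b, F2rl2, Thbs1, Rab27b and the markers Hba-a1 and Epb42). The members and gene lists were chosen with earlier results of these data known, and 2 genes of the lists are not reported here. Alternatives were another promoter width, start-site set, flank, peak list, stricter threshold and overlap, and leaving out each replicate.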

Additional observations from a re-analysis of the deposited data

How the results depend on the processing

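With 5 members open, other settings gave 4 (500 bp, 5′ end or coding starts only, each losing Vwf) or 6 (2 kb, the less strict lists or the series-level lists, each adding Gp9), and the stricter threshold (enrichment at or above the median of the list) left 1, P2ry1. Under that threshold 7 of the 54 other genes were open against 20, and 30 were in the series-level replicated list. Promoter intervals, 7.5 on average, became 4 with the 5′ end only, 4 with coding starts only, 12 with the less strict lists, 16 and 12 with the series-level replicated and thresholded lists, and 1.5 under the stricter threshold. Intragenic intervals, 4 on average, became 6.5 at 500 bp, 7.5 with the 5′ end only, 7.5 with coding starts only, 8 with the less strict lists, 9 and 7 with the series-level lists and 1 under the stricter threshold. Leaving out a replicate gave 2 to 6 intragenic intervals, 2 being replicate 1 alone. Outside intervals, 22.5 on average, became 37 with the less strict lists, 55 with the series-level replicated list, 7.5 under the stricter threshold, 13 with 25 kb flanks and 35.5 with 100 kb flanks. These moves follow from how many intervals and start sites each setting admits. The other 45 of the 66 alternatives stayed within the spread allowed. No paired analysis was possible because the series has 1 group.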
